A study of Mus musculus with 2 samples.

Results

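The 31 genes described here encode proteins that license, copy and repackage DNA during S phase. They were taken by symbol from the 53715 genes listed for both libraries, and their unique molecular identifier (UMI) counts were read in every barcode with at least 1 UMI of Ncr1, the gene of the receptor NKp46. Such barcodes numbered 11052 of 12435 in the combination library and 7792 of 8386 in the IL-15SA library. Both libraries are single-cell RNA sequencing of natural killer (NK) cells sorted from mouse CT26 colon carcinomas that lack B2m, a gene without which MHC class I does not reach the cell surface. CT26 is a transplantable mouse colon carcinoma line. One group of tumours received IL-15SA together with IL-21Fc and the other IL-15SA alone, so that IL-15SA is common to both, no library is untreated, and the labels give neither dose, time, strain nor age. The series title names IL-21 as the single agent, whereas the sample titles, which were followed, name IL-15SA. Cells of a treatment were pooled into 1 library, so no difference between the libraries has a replicate check and no test was made. Intervals are given at 95% and cover counting error only.

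Replication starts when ORC, Cdc6 and Cdt1 load the ring of the minichromosome maintenance proteins Mcm2 to Mcm7 onto origins in G1, a step called licensing. Cdc45 and the GINS complex then turn the ring into the active helicase, the primase and polymerases follow, and the clamp Pcna holds the polymerases on DNA. Transcription of many of these genes is driven by E2F factors as cells pass from G1 into S phase, and IL-15 is a cytokine that drives NK cells to divide.

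The Ncr1-positive barcodes held 32051350 UMIs in the combination library, with a median of 2424 per barcode, and 29503540 UMIs in the IL-15SA library, with a median of 3166. All 11 NK markers checked, among them Prf1, Gzma and Klrk1, were detected in both. One of the 11 is Ncr1 itself, which is present by the choice of barcodes. A total of 11 of 12 tumour or stroma markers were also detected (Col5a2 was at 0), at a summed level of 441 CPM (counts per 1000000 UMIs) in the combination library and 207 CPM in the IL-15SA library. Myeloid markers summed to 44.8 CPM in the combination library and 34.8 CPM in the IL-15SA library. T cell markers summed to 1528 CPM in the combination library, where 8 of 9 were detected and Cd8b1 was at 0, and 1441 CPM in the IL-15SA library, where all 9 were detected. B cell markers summed to 91.5 CPM in the combination library and 60.5 CPM in the IL-15SA library, with Ms4a1 at 0 in both. A total of 60 barcode sequences occurred in both libraries. Doublets were kept, because the automatic threshold of Scrublet marked 0% of combination barcodes and 0.0238% of IL-15SA barcodes.

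Of the 31 genes, 30 had UMIs, and all 30 lay at 5 CPM or more. Cdt1, which delivers the MCM ring to origins, had 0 UMIs in both libraries. Its gene lies inside Gm20388, a read-through gene model on the same strand of chromosome 8 that had 4963 UMIs in the combination library and 4716 in the IL-15SA library. All 36 protein-coding genes that lie inside Gm20388 on its own strand had 0 UMIs, although 0 of the 36 share an exon base with it, whereas 32 of the 35 on the opposite strand had UMIs. Cdt1 (ENSMUSG00000006585, chr8:122568015-122573554, plus strand) and Gm20388 were placed with GENCODE M21 on mm10. The 0 of Cdt1 therefore sets no limit on its expression. Gins2 overlaps the same model on the opposite strand, and Mcm7, Cdc45, Rfc2, Rfc4, Fen1 and Pclaf also overlap a protein-coding gene on the other strand. The counts at Gm20388 show that a gene model on the opposite strand did not take the UMIs of genes inside it, as counting by strand gives, although the setting itself is not given in the sources used here.

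Across all Ncr1-positive barcodes, DNA replication genes were lower in the combination library by a small amount in nearly every member. Summed over the members they were at 3186 CPM (3166 to 3205) in the combination library and 3609 CPM (3587 to 3631) in the IL-15SA library, a ratio of 0.883 (0.875 to 0.890). The log2 ratios, with 1 CPM added to both values, had a median of -0.19 and ran from -0.36 for Dut to 0.08 for E2f8. Of the 30 measured members, 29 were below 0, against 47.4% of the 9390 genes at 5 CPM or more in 1 library, whose median was 0.01. Only Dut (ENSMUSG00000027203, chr2:125247190-125258608, plus strand) and Mcm3 (ENSMUSG00000041859, chr1:20802968-20820312, minus strand) were lower by 20% or more on that scale, where 3.13% of all genes were, and 0 members were higher by 25% or more, where 9.83% of all genes were. Tumour or stroma markers, at 441 CPM in the combination library and 207 CPM in the IL-15SA library, moved the other way. Without barcodes that held 3 or more of their UMIs, the median of the members was -0.22. The difference depended on how total UMIs per barcode were treated. With both libraries weighted to the same bins of total UMIs the median was 0.02, with 12 of 30 members below 0. The share of all genes below 0 under that weighting is not given here.

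Among the licensing genes, all 7 measured members were lower in the combination library, and summed they were at 953 CPM in the combination library and 1073 CPM in the IL-15SA library, a ratio of 0.888 (0.874 to 0.902). Mcm2 was at 485 CPM (477 to 493) in the combination library and 528 CPM (520.1 to 537) in the IL-15SA library, a ratio of 0.918 (0.898 to 0.939). Mcm3, the MCM subunit with the lowest ratio, was at 96.8 CPM (93.4 to 100.3) in the combination library and 122 CPM (118 to 126) in the IL-15SA library, a ratio of 0.795 (0.758 to 0.835) and a log2 ratio of -0.33. The subunits of one ring thus differed in their ratios by more than counting error allows for Mcm2 and Mcm3. Mcm4 was at 59.8 CPM (57.1 to 62.5) in the combination library and 70.8 CPM (67.8 to 73.9) in the IL-15SA library, a ratio of 0.844 (0.793 to 0.898). Mcm5 and Mcm6 had log2 ratios of -0.22 and -0.21, and Mcm7 one of -0.12. Cdc6, the loader of the ring, was at 19.8 CPM (18.3 to 21.4) in the combination library and 21.2 CPM (19.6 to 22.9) in the IL-15SA library, and its ratio of 0.935 (0.836 to 1.05) included 1. Cdc45 and Gins2, which turn the loaded ring into a helicase, had ratios of 0.867 (0.790 to 0.951) and 0.896 (0.833 to 0.965).

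The 9 genes of the fork and its polymerases were at 1201 CPM in the combination library and 1362 CPM in the IL-15SA library when summed, a ratio of 0.882 (0.870 to 0.894), and each of the 9 lay below 0. Pclaf, a small Pcna-binding protein also known as PAF15, was at 409 CPM (402 to 416) in the combination library and 482 CPM (475 to 490.5) in the IL-15SA library, a ratio of 0.847 (0.827 to 0.867). Pcna was at 232 CPM (227 to 237) in the combination library and 253 CPM (247 to 258) in the IL-15SA library, a ratio of 0.918 (0.889 to 0.948). Clspn, which encodes the fork and checkpoint protein claspin, was at 59.2 CPM (56.6 to 61.9) in the combination library and 71.0 CPM (68.0 to 74.1) in the IL-15SA library, a ratio of 0.834 (0.783 to 0.888), the lowest of this group. Tipin, whose product travels with Timeless at the fork, had a log2 ratio of -0.22, the primase subunit gene Prim1 one of -0.22, the polymerase alpha subunit gene Pola1 one of -0.21 and the flap nuclease gene Fen1 one of -0.23. The clamp loader gene Rfc2 was nearest to 1 in this group. It was at 187 CPM (182 to 192) in the combination library and 192 CPM (187 to 197) in the IL-15SA library, and its ratio of 0.973 (0.938 to 1.01) included 1, while the clamp loader gene Rfc4 had a log2 ratio of -0.13.

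Genes of nucleotide supply were the group with the lowest summed ratio, 0.860 (0.843 to 0.876), at 649 CPM in the combination library and 756 CPM in the IL-15SA library. Dut encodes dUTPase, which keeps uracil out of DNA, and had the lowest ratio of all members. It was at 188 CPM (183 to 193) in the combination library and 242 CPM (237 to 248) in the IL-15SA library, a ratio of 0.776 (0.749 to 0.803). The ribonucleotide reductase subunit genes differed from each other, with Rrm1 at a ratio of 0.847 (0.805 to 0.892) and Rrm2 at 264 CPM (258 to 269) in the combination library and 286 CPM (280.4 to 293) in the IL-15SA library, a ratio of 0.920 (0.893 to 0.948). The thymidylate synthase gene Tyms had a ratio of 0.890 (0.847 to 0.936). Ung, the uracil-DNA glycosylase gene counted with this group, was at 15.3 CPM (13.9 to 16.7) in the combination library and 16.6 CPM (15.2 to 18.1) in the IL-15SA library, and its ratio of 0.919 (0.809 to 1.04) included 1.

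Genes of chromatin and of histone supply had a summed ratio of 0.918 (0.891 to 0.945). Slbp and Esco2 lay nearer to 1, whereas Hells, Uhrf1 and Chaf1b had ratios of 0.854, 0.885 and 0.860. Slbp, whose product binds the stem-loop of histone mRNAs, was at 89.2 CPM (85.9 to 92.5) in the combination library and 89.6 CPM (86.2 to 93.1) in the IL-15SA library, a ratio of 0.995 (0.943 to 1.05). Esco2, a cohesin acetyltransferase gene, was at 54.8 CPM (52.3 to 57.5) in the combination library and 57.9 CPM (55.2 to 60.7) in the IL-15SA library, a ratio of 0.947 (0.886 to 1.01). The ratios of both genes included 1. Hells and Uhrf1, which serve the upkeep of DNA methylation, had log2 ratios of -0.22 and -0.17, and the histone chaperone subunit gene Chaf1b one of -0.21. Of the control genes, Dtl, which directs Cdt1 to destruction, had a ratio of 0.890 (0.794 to 0.996). E2f8, an E2F factor that represses transcription, was the single member above 0, at 13.9 CPM (12.7 to 15.3) in the combination library and 13.2 CPM (11.9 to 14.6) in the IL-15SA library, with a ratio of 1.06 (0.921 to 1.21) that included 1.

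**Figure D1:**
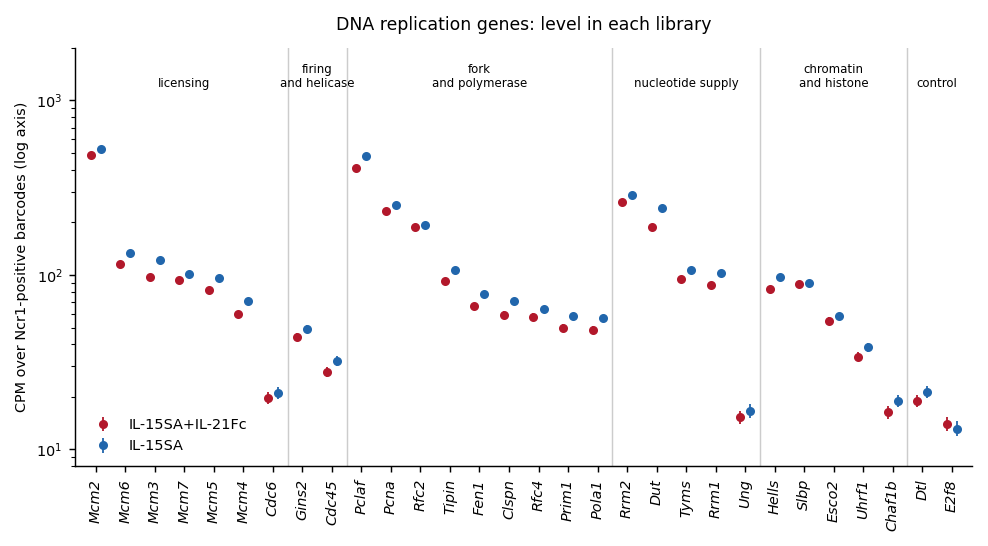
Level of the 30 measured DNA replication genes in CPM (log axis) over the Ncr1-positive barcodes of each library, grouped by role, with exact Poisson 95% intervals that are mostly smaller than the points. The combination point lies below the IL-15SA point for 29 genes and above it for E2f8.

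Promoter windows were searched for letters that were not used to choose the genes. RefSeq windows of the mouse build GRCm38.p6, running from 250 bases before a start site to 50 after it, were matched for 26 of the 31 members and comprised 29 windows. E2F-like letters (TTTGGCGC, TTTCGCGC, TTTCCCGC or TTTGCCGC, on either strand) occurred in 12 of the 29 windows (41.4%), against 2.26% of all 32851 windows. A total of 4 windows (13.8%) held at least 2 matches, against 0.0974% of all windows. CCAAT on either strand occurred in 19 of the 29 windows (65.5%), against 37.4% of all windows. The windows of 58 further replication genes held E2F-like letters in 26.3% of cases. The median GC content was 61.3% in member windows and 52.7% in all windows. Among the 30251 windows at or above the lowest GC content of a member window, 2.44% held the letters. That limit kept 30251 of the 32851 windows, so it does not match the GC content of the member windows. A match of letters is a description and not a shown binding site.

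The windows of 3 MCM genes with at least 2 matches and of 2 fork genes with a match near the start site are printed, with the E2F-like letters in capitals and the start site at base 251. They lie at chr1:20820263-20820562, minus strand (Mcm3), chr8:75109259-75109558, plus strand (Mcm5), chr1:128359656-128359955, minus strand (Mcm6), chr9:65890073-65890372, plus strand (Pclaf) and chr4:126556730-126557029, plus strand (Clspn), and each is given 5′ to 3′ in the direction of its gene.
Mcm3: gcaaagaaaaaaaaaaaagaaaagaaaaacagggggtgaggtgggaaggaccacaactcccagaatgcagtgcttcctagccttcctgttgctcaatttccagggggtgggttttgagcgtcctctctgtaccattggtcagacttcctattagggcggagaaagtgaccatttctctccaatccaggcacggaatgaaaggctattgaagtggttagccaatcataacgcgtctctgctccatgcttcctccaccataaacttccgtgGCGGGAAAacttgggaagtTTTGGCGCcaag
Mcm5: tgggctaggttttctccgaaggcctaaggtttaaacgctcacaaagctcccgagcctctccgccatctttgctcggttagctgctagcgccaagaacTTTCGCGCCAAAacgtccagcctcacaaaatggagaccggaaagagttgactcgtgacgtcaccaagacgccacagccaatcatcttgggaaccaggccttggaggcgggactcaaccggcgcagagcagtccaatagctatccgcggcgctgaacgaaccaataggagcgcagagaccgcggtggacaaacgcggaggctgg
Mcm6: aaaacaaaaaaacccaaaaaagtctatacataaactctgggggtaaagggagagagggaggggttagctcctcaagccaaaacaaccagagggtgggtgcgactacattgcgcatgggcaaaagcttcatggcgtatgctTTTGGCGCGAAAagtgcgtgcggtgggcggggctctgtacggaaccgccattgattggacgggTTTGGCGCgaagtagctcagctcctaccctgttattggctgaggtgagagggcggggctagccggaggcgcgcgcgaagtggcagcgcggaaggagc
Pclaf: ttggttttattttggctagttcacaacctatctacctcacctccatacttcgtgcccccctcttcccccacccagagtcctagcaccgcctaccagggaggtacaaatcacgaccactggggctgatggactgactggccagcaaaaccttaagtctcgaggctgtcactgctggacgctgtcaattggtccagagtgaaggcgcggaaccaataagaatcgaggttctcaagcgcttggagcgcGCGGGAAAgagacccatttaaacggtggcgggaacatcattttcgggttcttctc
Clspn: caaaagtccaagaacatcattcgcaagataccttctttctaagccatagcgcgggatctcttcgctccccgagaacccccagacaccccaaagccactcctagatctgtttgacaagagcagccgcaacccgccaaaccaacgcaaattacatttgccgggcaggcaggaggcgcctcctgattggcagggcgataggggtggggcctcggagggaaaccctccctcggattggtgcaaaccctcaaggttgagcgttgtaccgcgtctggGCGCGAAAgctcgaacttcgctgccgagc
In Mcm5 and Mcm6 a pair of matches on opposite strands overlaps by 4 letters, so that both capital runs read TTTCGCGCCAAA or its reverse complement TTTGGCGCGAAA. In Mcm6 the pair begins 110 bases before the start site and a further match begins 47 bases before it. In Mcm5 the pair begins 153 bases before the start site. Pclaf has its match 5 bases before the start site, and Clspn 21 bases after it, while Mcm3 has 2 matches, 19 and 38 bases after it. No such letters were found in the windows of Mcm2, Dut, Rrm2 or Pcna, which says only that these letters are not in these windows.

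The share of Ncr1-positive barcodes with a member's UMI depends on depth, so each barcode was also thinned to 1000 UMIs, which left out 0 barcodes. At that depth at least 1 member was detected in 76.7% of barcodes in the combination library and 82.6% in the IL-15SA library, and without thinning in 91.6% in the combination library and 96.0% in the IL-15SA library. A Pclaf UMI was found in 20.3% of barcodes in the combination library and 25.6% in the IL-15SA library after thinning, and in 33.6% of barcodes in the combination library and 44.7% in the IL-15SA library without it. The thinned shares for Mcm2 were 28.1% of barcodes in the combination library and 33.0% in the IL-15SA library. For Rrm2 they were 14.3% of barcodes in the combination library and 16.0% in the IL-15SA library, and for Pcna 16.2% of barcodes in the combination library and 18.5% in the IL-15SA library. The thinned share was higher in the IL-15SA library for each of these 4 genes. For Slbp it was 7.73% of barcodes in the combination library and 7.24% in the IL-15SA library, and for E2f8 1.10% of barcodes in the combination library and 1.09% in the IL-15SA library.

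Several members were often found in one barcode. After thinning, 3 or more distinct members were detected in 32.1% (31.3 to 33.0) in the combination library and 40.7% (39.6 to 41.8) in the IL-15SA library, and 0 members in 23.3% (22.5 to 24.1) in the combination library and 17.4% (16.5 to 18.2) in the IL-15SA library. The most in 1 thinned barcode were 15 in the combination library and 13 in the IL-15SA library. The files hold no cell type known to lack these transcripts, and barcodes with 0 UMIs of 71 other cell cycle genes come nearest to one. In those barcodes, whose median depths were 1826 UMIs in the combination library and 2080 UMIs in the IL-15SA library, the thinned share with 3 or more members was 13.5% (11.5 to 15.7) in the combination library and 15.7% (12.1 to 19.9) in the IL-15SA library. The shares over all Ncr1-positive barcodes were therefore above that level in both libraries.

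To ask whether the lower level belongs to fewer dividing cells or to a lower level within them, barcodes were divided by 71 cell cycle genes that are not members, of which 34 act in mitosis, 33 are histones and 4 are general cycle genes. Barcodes with at least 3 such UMIs, called cycling here, made up 61.5% (60.6 to 62.4) in the combination library and 75.2% (74.3 to 76.2) in the IL-15SA library. That limit lies within the peak of the distribution, since 26.5% of barcodes in each library held 3 to 5 such UMIs. A second limit that scales with depth, 4 cycle-gene UMIs per 1000 UMIs of a barcode, was therefore added after the data were seen. Barcodes at or above it, called strongly cycling, numbered 2645 in the combination library and 2308 in the IL-15SA library, or 23.9% (23.1 to 24.7) in the combination library and 29.6% (28.6 to 30.6) in the IL-15SA library. A total of 866 barcodes in the combination library and 725 in the IL-15SA library lay near that limit, at 3 to 5 per 1000. The strongly cycling barcodes held 52.3% of the members' UMIs in 31.7% of all UMIs in the combination library, and 53.5% of the members' UMIs in 36.2% of all UMIs in the IL-15SA library.

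Within strongly cycling barcodes the members differed little between the libraries. Their sum was at 5263 CPM (5218 to 5308) in the combination library and 5339 CPM (5295 to 5383) in the IL-15SA library, a ratio of 0.986 (0.974 to 0.997), and the median log2 ratio was -0.02, with 17 of 30 members below 0 and 13 above it, against 46.9% of all genes below 0. Of the 30, 0 were lower by 20% or more, where 5.34% of all genes were, and 0 were higher by 25% or more, where 11.9% of all genes were. Mcm2 was at 549 CPM in the combination library and 524 CPM in the IL-15SA library, a ratio of 1.05 (1.01 to 1.09), and Pcna at 337 CPM in the combination library and 320.0 CPM in the IL-15SA library, a ratio of 1.05 (1.00 to 1.11). The licensing genes summed to 1201 CPM in the combination library and 1178 CPM in the IL-15SA library there, a ratio of 1.02 (0.995 to 1.05) that included 1. Dut kept a lower level in the combination library, at 275 CPM in the combination library and 308 CPM in the IL-15SA library, a ratio of 0.893 (0.849 to 0.940). Pclaf was at 965 CPM in the combination library and 1017 CPM in the IL-15SA library, a ratio of 0.948 (0.923 to 0.975). Tumour or stroma markers summed to 410 CPM in strongly cycling barcodes of the combination library and 185 CPM in those of the IL-15SA library, and their part in these values was not tested beyond a removal of barcodes with 3 or more of their UMIs, which gave a median of -0.03.

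In the other Ncr1-positive barcodes, which lay under 4 cycle-gene UMIs per 1000, the members were lower in the combination library. Their sum was at 2222 CPM (2202 to 2242) in the combination library and 2629 CPM (2606 to 2652) in the IL-15SA library, a ratio of 0.845 (0.835 to 0.856). The median log2 ratio was -0.23, with 29 of 30 members below 0, against 46.3% of all genes, and 7 were lower by 20% or more, against 4.08% of all genes. None was higher by 25% or more, against 10.9% of all genes. These 7 were Dut at -0.47, Mcm3 at -0.43, Cdc45 at -0.35, Mcm6 at -0.35, Dtl at -0.34, Mcm4 at -0.33 and Mcm5 at -0.32, all on the log2 scale. Mcm6, for example, was at 103 CPM in the combination library and 131 CPM in the IL-15SA library there, against 141 CPM in the combination library and 138 CPM in the IL-15SA library in strongly cycling barcodes. E2f8 was above 0, at 0.17. The median depth of these other barcodes was 2261 UMIs in the combination library and 2966 UMIs in the IL-15SA library, and tumour or stroma markers summed to 455 CPM in the combination library and 219 CPM in the IL-15SA library. The direction changed with total UMIs. At 1500 to under 2000 UMIs the members summed to 1549 CPM in the combination library and 2072 CPM in the IL-15SA library. At 3000 to under 4500 UMIs they summed to 2474 CPM in the combination library and 2223 CPM in the IL-15SA library. The combination library was lower in each fixed bin under 3000 UMIs and higher from 3000 to under 7000. At 7000 or more the sums were 3773 CPM and 3772 CPM. Whether the difference between strongly cycling and other barcodes exceeds the spread between samples could not be tested with 1 library per group.

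Over all Ncr1-positive barcodes the summed level was lower by 423 CPM in the combination library. With the combination levels weighted to the IL-15SA share of UMIs in strongly cycling barcodes, it was lower by 287 CPM, and the median log2 ratio was -0.12. With the lower limit of 3 UMIs the members within cycling barcodes had a median of -0.06, with 22 of 30 below 0, against 46.2% of all genes, and 0 past either limit, where 3.00% of all genes were lower by 20% or more and 10.4% higher by 25% or more. The highest ratios within cycling barcodes were those of E2f8 at 1.19 (1.03 to 1.38), Esco2 at 1.07 (1.00 to 1.15) and Cdc6 at 1.06 (0.940 to 1.18). The lowest were those of Dut at 0.838 (0.808 to 0.870), Mcm3 at 0.862 (0.819 to 0.908) and Chaf1b at 0.900 (0.791 to 1.02). Barcodes with 0 cycle-gene UMIs still held members at 1351 CPM in the combination library and 1549.5 CPM in the IL-15SA library, and those with 1 or 2 at 1529 CPM in the combination library and 1687 CPM in the IL-15SA library.

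**Figure D2:**
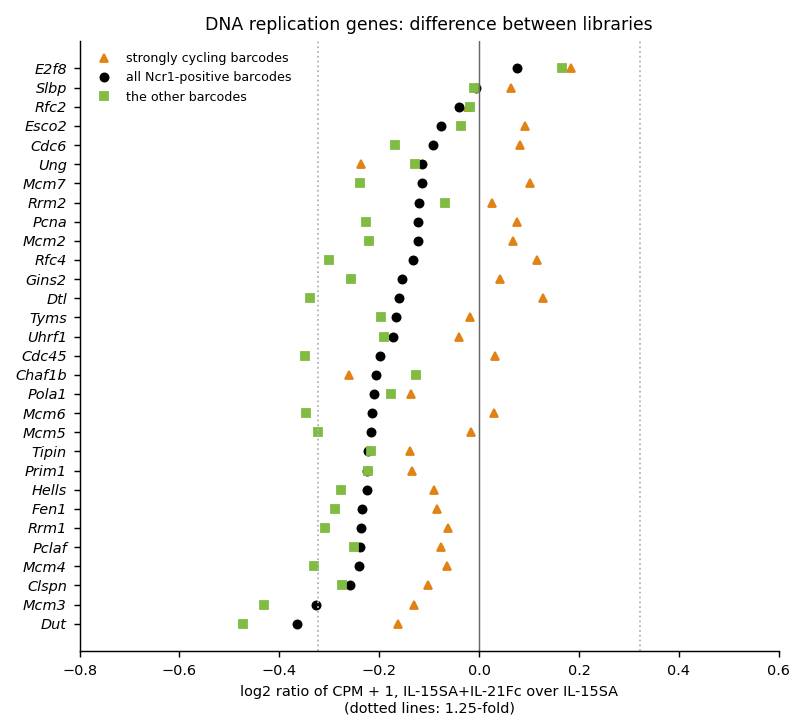
log2 ratio of each measured DNA replication gene, IL-15SA+IL-21Fc over IL-15SA with 1 CPM added, in strongly cycling barcodes (triangles), all Ncr1-positive barcodes (circles) and the other barcodes (squares), with dotted lines at 20% lower and 25% higher. Triangles lie on both sides of 0 (17 below, 13 above), whereas 29 of 30 squares lie below it.

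Along the range of cycle-gene UMIs the members reached their highest summed level in the middle and not at the end. At under 1 cycle-gene UMI per 1000 they were at 1606 CPM in the combination library and 1902 CPM in the IL-15SA library. At 3 to 4 per 1000 they were at 4418 CPM in the combination library and 4956 CPM in the IL-15SA library, and at 6 to 8 per 1000, the highest point in both libraries, at 5966 CPM in the combination library and 6046 CPM in the IL-15SA library. At 12 to 20 per 1000 they were at 4582 CPM in the combination library and 4644 CPM in the IL-15SA library, and at 20 or more at 3243 CPM in the combination library and 3699.7 CPM in the IL-15SA library. The combination library lay below the IL-15SA library at each of the 4 steps up to 4 per 1000, beyond counting error, and the intervals of both libraries overlapped at each of the 4 steps from 4 to 20. At 20 or more per 1000, in 114 barcodes of the combination library and 67 of the IL-15SA library, the combination library was again lower and the intervals did not overlap. The members peaked at different steps. Mcm2 was highest at 4 to 6 per 1000 in the combination library (779 CPM) and at 3 to 4 in the IL-15SA library (782 CPM), and Ung at 3 to 4 in both, at 39.0 CPM in the combination library and 36.6 CPM in the IL-15SA library. Rrm2 and Pclaf were highest at 8 to 12 in both libraries, with Rrm2 at 714 CPM in the combination library and 685 CPM in the IL-15SA library. Esco2 was highest at 12 to 20 in both, at 172 CPM in the combination library and 175 CPM in the IL-15SA library.

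**Figure D3:**
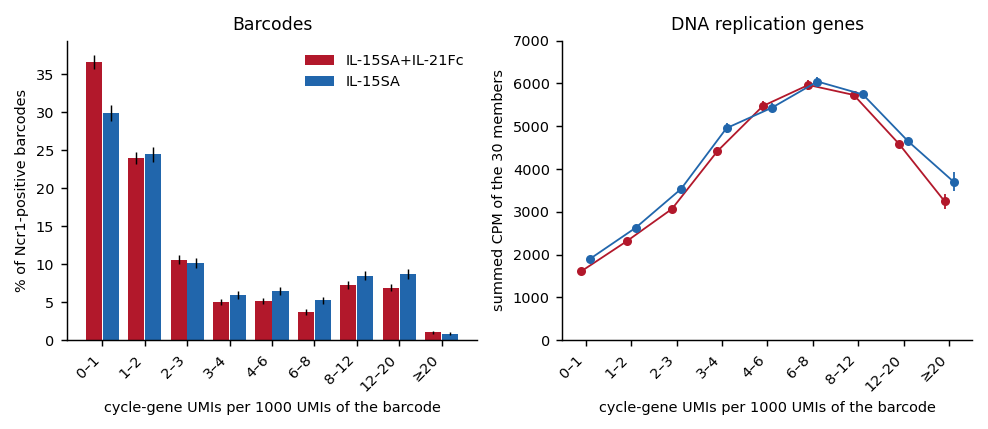
Left, percent of Ncr1-positive barcodes of each library by UMIs of the 71 non-member cell cycle genes per 1000 UMIs, with exact binomial 95% intervals. Right, summed level of the 30 DNA replication genes in CPM in the same steps, with exact Poisson 95% intervals: both curves peak at 6 to 8 per 1000.

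The members also differed from each other in how far they followed the cycling state. Esco2 was 13.4 in the combination library and 12.3 in the IL-15SA library times as high in strongly cycling barcodes as in the others, Rrm2 6.68 in the combination library and 6.26 in the IL-15SA library times, and Pclaf 6.40 in the combination library and 5.66 in the IL-15SA library times. E2f8 and Clspn stood at 5.09 and 4.79 times in the combination library and at 5.10 and 4.23 times in the IL-15SA library. At the other end Mcm2 was 1.20 in the combination library and 0.986 in the IL-15SA library times as high, Mcm6 1.37 in the combination library and 1.05 in the IL-15SA library times and Rfc2 1.33 in the combination library and 1.34 in the IL-15SA library times. Ung was lower in strongly cycling barcodes, at 0.480 in the combination library and 0.523 in the IL-15SA library times the level in the others. In the combination library 15 of 30 members were at least 2-fold higher in strongly cycling barcodes, against 4.31% of all genes. In the IL-15SA library 12 of 30 were, against 4.13% of all genes. These are values within a library, with no test.

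Strongly cycling barcodes were further divided by the balance of histone and mitosis UMIs. Where histone UMIs outnumbered mitosis UMIs (291 barcodes in the combination library and 256 in the IL-15SA library) the members were at 8105 CPM (7945 to 8267) in the combination library and 7705 CPM (7558 to 7854) in the IL-15SA library. Where mitosis UMIs were more than 4 times the histone UMIs (1094 barcodes in the combination library and 932 in the IL-15SA library) they were at 3196 CPM (3139 to 3253) in the combination library and 3370.3 CPM (3312 to 3429) in the IL-15SA library. In between they were at 6108 CPM in the combination library and 6123 CPM in the IL-15SA library. The combination library was thus higher in histone-led and lower in mitosis-led barcodes, both beyond counting error. Tumour or stroma markers were at 161 CPM in the combination library and 85.5 CPM in the IL-15SA library in the histone-led barcodes, and at 654 CPM in the combination library and 323 CPM in the IL-15SA library in the mitosis-led ones. All 30 members were higher in histone-led than in mitosis-led barcodes of both libraries. The ratio was highest for Ung, at 6.72 in the combination library and 7.28 in the IL-15SA library, and Cdc6, at 5.27 in the combination library and 5.51 in the IL-15SA library. It was lowest for E2f8, at 1.27 in the combination library and 1.60 in the IL-15SA library, and was 1.63 in the combination library and 1.80 in the IL-15SA library for Esco2.

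A coarser division, at 3 histone or mitosis UMIs, placed barcodes with both kinds highest, and members then lay on both sides of 1 in the histone class over the mitosis class. This limit does not scale with depth. Barcodes with both kinds were the deepest, at a median of 4140.5 UMIs in the combination library and 5044 in the IL-15SA library. Tumour or stroma markers in the histone class were at 634 CPM in the combination library and 85.1 CPM in the IL-15SA library. In the mitosis class they were at 659 CPM in the combination library and 396 CPM in the IL-15SA library. The histone class, with at least 3 histone and under 3 mitosis UMIs, held the members at 2881 CPM in the combination library and 3077 CPM in the IL-15SA library. Barcodes with at least 3 of both held them at 5592 CPM in the combination library and 5319 CPM in the IL-15SA library. The mitosis class, with at least 3 mitosis and under 3 histone UMIs, held them at 2440.3 CPM in the combination library and 2513 CPM in the IL-15SA library. Median depths were 2931 UMIs in the histone class and 2353 in the mitosis class of the combination library. In the IL-15SA library they were 3814.5 UMIs and 2673 UMIs. The ratio of the histone class over the mitosis class was highest for Ung, at 1.77 in the combination library and 2.49 in the IL-15SA library, Mcm2, at 1.59 in the combination library and 1.55 in the IL-15SA library, Mcm5, at 1.46 in the combination library and 1.54 in the IL-15SA library, and Mcm3, at 1.42 in the combination library and 1.47 in the IL-15SA library. It was lowest for Esco2, at 0.288 in the combination library and 0.302 in the IL-15SA library, Pclaf, at 0.621 in the combination library and 0.579 in the IL-15SA library, E2f8, at 0.685 in the combination library and 0.672 in the IL-15SA library, and Rrm2, at 0.805 in the combination library and 0.583 in the IL-15SA library. Outside every list, the genes at 20 CPM or more that were highest in the histone class over barcodes with 0 cycle-gene UMIs were Rmi2, Cenph, Zmynd19, Cdca7, Cenps, Aldh16a1, 4930579G24Rik, Spc24, Cbx5 and Mre11a. These ratios have 1 CPM added to both values. Rmi2, a subunit of a complex that dissolves recombination intermediates, had ratios of 2.61 in the combination library and 2.99 in the IL-15SA library. In barcodes with 0 cycle-gene UMIs it was at only 8.11 CPM in the combination library and 7.27 CPM in the IL-15SA library. Cenph, a kinetochore gene, had ratios of 2.57 in the combination library and 2.47 in the IL-15SA library.

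**Figure D4:**
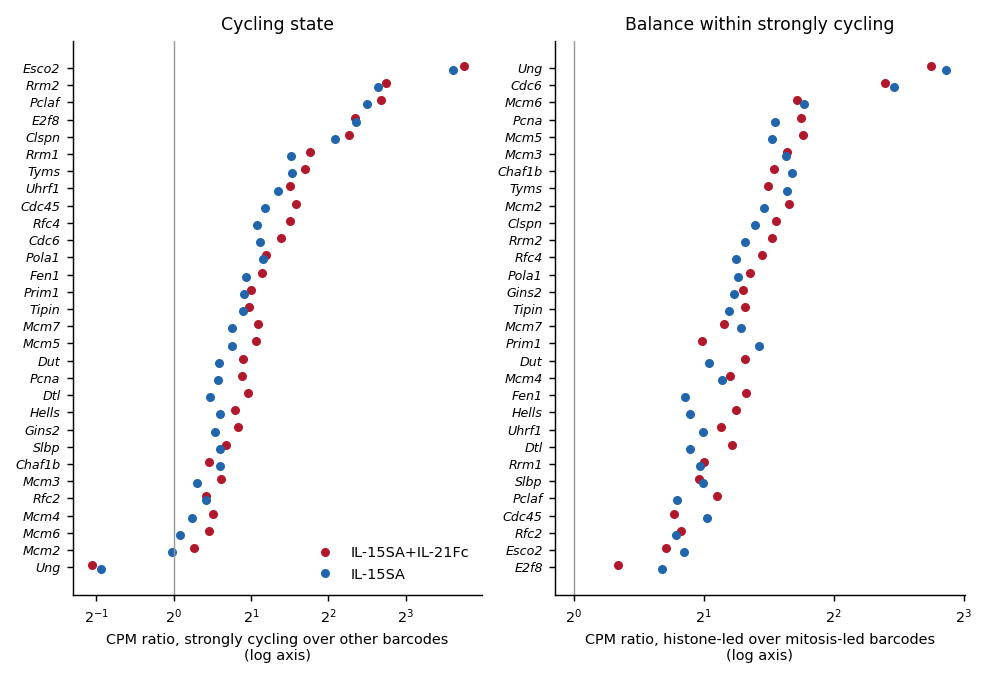
Ratio of CPM for each measured DNA replication gene in each library (log axes), ordered by the mean over the libraries. Left, strongly cycling over the other Ncr1-positive barcodes, from Ung (below 1) to Esco2. Right, histone-led over mitosis-led barcodes among the strongly cycling, from E2f8 to Ung.

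The members' level was related to the total UMIs of a barcode in both libraries. In barcodes of 1500 to under 2000 UMIs they were at 1831 CPM in the combination library and 2598 CPM in the IL-15SA library, and in barcodes of 7000 or more at 5125 CPM in the combination library and 4855 CPM in the IL-15SA library. The lowest barcodes did not have the lowest level, since those under 1500 UMIs were at 2104 CPM in the combination library and 2802 CPM in the IL-15SA library. The share of strongly cycling barcodes followed the same course, from 11.3% at 1500 to under 2000 UMIs to 66.5% at 7000 or more in the combination library, and from 19.8% at 2000 to under 3000 UMIs to 59.8% in the IL-15SA library. Rrm2 rose most with total UMIs, being higher at 7000 or more than at 2000 to under 3000 UMIs by 3.97-fold in the combination library and 2.85-fold in the IL-15SA library, and Pclaf by 3.97-fold in the combination library and 2.84-fold in the IL-15SA library. Slbp differed little over the same span, by 1.34-fold in the combination library and 1.24-fold in the IL-15SA library. The smallest difference was that of Rfc2 in the combination library, at 1.26-fold, and that of Dtl in the IL-15SA library, at 1.15-fold.

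The difference between the libraries depended on the bin of total UMIs and went both ways. The ratio of the summed members, combination over IL-15SA, was 0.751 (0.716 to 0.788) under 1500 UMIs, 0.705 (0.680 to 0.730) at 1500 to under 2000 and 0.863 (0.843 to 0.884) at 2000 to under 3000. It was 1.15 (1.13 to 1.17) at 3000 to under 4500, 1.10 (1.08 to 1.12) at 4500 to under 7000 and 1.06 (1.04 to 1.08) at 7000 or more. The share of strongly cycling barcodes crossed in the same place, at 11.3% in the combination library and 24.2% in the IL-15SA library at 1500 to under 2000 UMIs, and at 31.5% in the combination library and 23.1% in the IL-15SA library at 3000 to under 4500. When both libraries were weighted to the same fixed bins, the median log2 ratio of the members was 0.02, with 12 of 30 below 0. The lower level of the members in the combination library was thus not seen under this weighting. Without weighting, 47.4% of all genes were below 0 and their median was 0.01. The share of all genes under this weighting is not given here. A fixed number of UMIs lies at a different place in each library, because its median depth was 2424 in the combination library and 3166 in the IL-15SA library.

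Within sixths of each library by total UMIs, a division added after the data were seen, the ratio was below 1 in every step. It was 0.758 (0.730 to 0.788) in the lowest sixth, 0.727 (0.702 to 0.753) in the second, 0.785 (0.761 to 0.810) in the third, 0.828 (0.808 to 0.849) in the fourth, 0.856 (0.840 to 0.872) in the fifth and 0.987 (0.975 to 1.00) in the highest. Weighted to the same sixths, the median log2 ratio was -0.17, with 29 of 30 members below 0. By construction each sixth holds nearly the same share of barcodes in both libraries. This weighting therefore had to stay near the unweighted median of -0.19 and does not match depth. The highest sixth began at 4142 UMIs in the combination library and at 5684 UMIs in the IL-15SA library. Tumour or stroma markers also varied with depth, at 278 CPM in the combination library and 215 CPM in the IL-15SA library for 2000 to under 3000 UMIs and 1366 CPM in the combination library and 291 CPM in the IL-15SA library for 7000 or more. Which of depth, cycling state and treatment the differences belong to cannot be told apart here, since strongly cycling barcodes held more UMIs, a median of 3435 in the combination library and 4024 in the IL-15SA library.

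**Figure D5:**
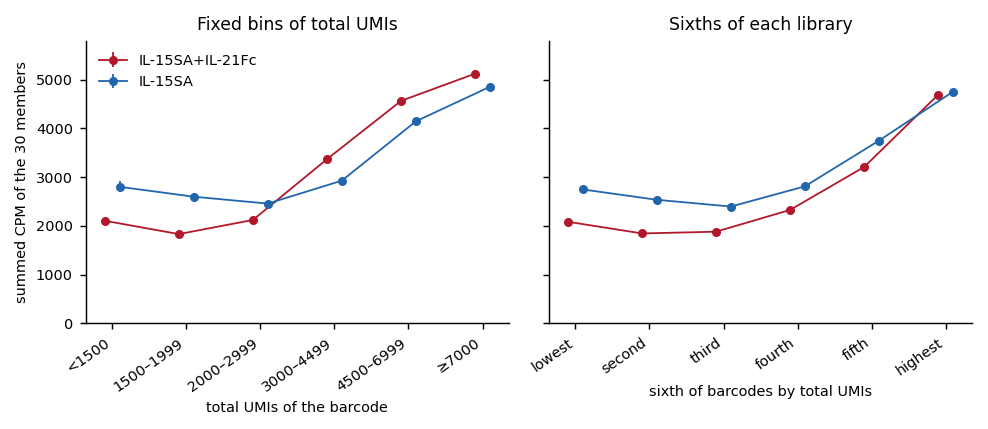
Summed level of the 30 DNA replication genes in CPM by total UMIs of the barcode, in fixed bins (left) and in sixths of each library (right), with exact Poisson 95% intervals. In fixed bins the combination points lie below the IL-15SA points under 3000 UMIs and above them from 3000, whereas in sixths they lie below throughout.

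A list of 58 further genes of DNA replication and its control moved in the same direction. Of the 56 at 5 CPM or more in 1 library, 45 were below 0, against 47.4% of all genes, with a median log2 ratio of -0.14, and the sum was at 2796 CPM (2778 to 2814) in the combination library and 3051 CPM (3031 to 3071) in the IL-15SA library, a ratio of 0.916 (0.908 to 0.925). A total of 5 were lower by 20% or more, against 3.13% of all genes, and 1 was higher by 25% or more, against 9.83% of all genes. The 5 were Ccne1, which encodes the G1 and S phase cyclin E1, at 22.5 CPM in the combination library and 31.3 CPM in the IL-15SA library, a ratio of 0.717 (0.650 to 0.792), the histone chaperone gene Nasp at 0.785 (0.750 to 0.823), the helicase subunit gene Gins3 at 0.773 (0.672 to 0.888), the fork protection gene Timeless at 0.786 (0.726 to 0.850) and the recombination gene Brca1 at 0.782 (0.698 to 0.876). The 1 higher gene was Samhd1, which encodes an enzyme that breaks down deoxynucleotides, at 110.1 CPM in the combination library and 81.6 CPM in the IL-15SA library, a ratio of 1.35 (1.28 to 1.42). Within strongly cycling barcodes the median of this list was -0.03, with 33 of 57 below 0, against 46.9% of all genes, and in the other barcodes it was -0.17, with 40 of 53 below 0, against 46.3% of all genes.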

How the data were processed

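Per the labels' protocols, NK cells (CD45.2+ CD3- NKp46+) were sorted from digested tumours, pooled by treatment and made into libraries with the GEXSCOPE microwell kit. The deposited matrices hold raw UMI counts. The submitters' processing notes name cutadapt, featureCounts, Seurat 4, Scanpy and mm10. Not given in the sources used here are the aligner, the annotation, the use of strand and the cell calling. Groups follow the sample titles, and the series title names another single agent.

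Counts were summed over barcodes with at least 1 Ncr1 UMI, from a minimum of 1123 UMIs per barcode in the combination library and 1292 in the IL-15SA library, and scaled to CPM by their total. Intervals at 95% are exact Poisson for CPM, exact conditional binomial for ratios and Clopper-Pearson for shares, and cover counting error only. Log2 ratios have 1 CPM added, and genes at 5 CPM or more in 1 library enter counts of genes. A single library per treatment allowed no test. Named genes are the members with the 5 highest CPM, the 4 highest and 4 lowest ratios, the 3 highest and 3 lowest ratios within cycling barcodes and the 4 highest and 4 lowest histone-class over mitosis-class ratios, ordered by the mean over libraries on a log scale, and outside them the 10 genes highest in the histone class; other members are given by value or count. The members, lists and limits were chosen with earlier results of these data known. Scripts were tested on simulated data. Python 3.11.15, numpy 2.4.6, scipy 1.17.1, pandas 2.3.3, scanpy 1.11.5 and matplotlib 3.10.9 were used. A planned search of protein sequences was not run.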

Additional observations from a re-analysis of the deposited data

Results flagged for a closer look

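Barcodes with 0 Ncr1 UMIs lie outside the comparisons above and still held DNA replication genes. The 30 measured genes summed to 2880 CPM in the 1383 such barcodes of the combination library and to 3050 CPM in the 594 of the IL-15SA library. Tumour or stroma markers summed to 2363 CPM in these barcodes of the combination library and 1366 CPM in those of the IL-15SA library. A total of 10 of 11 NK markers were detected in both, all but Ncr1, which is at 0 there by the choice of barcodes. Pclaf was at 241 CPM in the combination library and 318 CPM in the IL-15SA library, and Dut at 173 CPM in the combination library and 249.7 CPM in the IL-15SA library. Which cells these transcripts come from was not tested.

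The summed genes differed between the libraries in opposite directions in neighbouring bins of total UMIs. The ratio, combination over IL-15SA, was 0.705 at 1500 to under 2000 UMIs and 1.15 at 3000 to under 4500 UMIs. The difference between these bins was not tested, since each group has 1 library.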

How the results depend on the processing

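No paired analysis was possible because a treatment is represented by a single library. Depth enters each value through counting error, and the bins of total UMIs move the ratios far beyond it. The causes of the shifts here were not tested. Alternatives called added were chosen after seeing the data. The median log2 ratio of the members over all Ncr1-positive barcodes, -0.19, was -0.20 with at least 2 Ncr1 UMIs and also without the highest 5% of Scrublet scores, -0.22 without barcodes with 3 or more tumour or stroma UMIs, -0.17 with median-of-ratios size factors, -0.16 with 5 CPM added, -0.25 with barcodes thinned to 1000 UMIs, 0.0227 when weighted to the same bins of total UMIs, -0.17 (added) for the same sixths and -0.12 (added) for the IL-15SA share of strongly cycling UMIs. The count of members lower by 20% or more, 2, was 1 with at least 2 Ncr1 UMIs, size factors, 5 CPM added or the same sixths, 8 after thinning, and 0 with the same bins or the same strongly cycling share. Weighted to fixed bins, the log2 ratio of the summed members was 0.03, and weighted to sixths -0.16. The sixths were cut within each library, so weighting to them does not match depth between the libraries. Of the 30 single members, 29 were below 0 with at least 2 Ncr1 UMIs, 28 with size factors or after thinning, 26 with the same strongly cycling share and 12 with the same bins. The shares of all genes under these alternatives are not given here.

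Within cycling barcodes the median, -0.06, was -0.16 after thinning, -0.12 at 2 or more cycle-gene UMIs, 0.0124 at 5 or more, -0.0001 at 15 or more (added) and -0.0014 without histones. At 4 per 1000 UMIs (added) it was -0.0204, and with the removals -0.0212 at 2 or more Ncr1 UMIs, -0.0319 without the highest Scrublet scores and -0.0299 without barcodes with tumour or stroma UMIs. Removing the barcode sequences found in both libraries (added) gave -0.19 over all and -0.06 within cycling barcodes. The cycling share of 61.5% in the combination library and 75.2% in the IL-15SA library was 75.9% in the combination library and 86.0% in the IL-15SA library at 2 or more UMIs, 41.7% in the combination library and 55.7% in the IL-15SA library at 5 or more, 20.2% in the combination library and 27.1% in the IL-15SA library at 15 or more (added), 23.9% in the combination library and 29.6% in the IL-15SA library at 4 per 1000 (added), 35.5% in the combination library and 42.1% in the IL-15SA library after thinning, and 60.2% in the combination library and 74.2% in the IL-15SA library without the highest Scrublet scores. Without barcodes with tumour or stroma UMIs it was 60.15% in the combination library. It was lower in the combination library under every one of these limits. The share with 3 or more members, 32.1% in the combination library and 40.7% in the IL-15SA library, was 16.0% in the combination library and 19.96% in the IL-15SA library at 500 UMIs and 56.6% in the combination library and 73.0% in the IL-15SA library unthinned, and the share with any member 58.7% in the combination library and 65.8% in the IL-15SA library at 500 UMIs and 91.6% in the combination library and 96.0% in the IL-15SA library unthinned. The members in barcodes with both histone and mitosis UMIs over those with 0 cycle-gene UMIs, 4.14-fold in the combination library and 3.43-fold in the IL-15SA library, were 3.68-fold in the combination library and 3.08-fold in the IL-15SA library at 2 UMIs, 4.48-fold in the combination library and 3.75-fold in the IL-15SA library at 5, and 3.69-fold in the combination library and 3.24-fold in the IL-15SA library after thinning. Strongly cycling over the other barcodes (added) gave 2.37-fold in the combination library and 2.03-fold in the IL-15SA library. Recomputed values were set against counting error of the value given, or for counts of members against a fixed fold. Of those that answer a comparison, 39 stayed within this limit, 52 moved beyond it and 3 changed sign. Of the rest, 335 stayed within it and 54 moved beyond it. Among those 54 the sign changed for 16 members with the same bins, for Rrm2 and Esco2 with the same strongly cycling share, and for Slbp after thinning.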

Other observations

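Detection of one replication gene went with detection of others in the same barcode. In barcodes thinned to 1000 UMIs, those with a Cdc6 UMI held a mean of 4.57 other members in the combination library and 4.68 in the IL-15SA library, against 2.11 in combination barcodes without one and 2.49 in IL-15SA barcodes without one. For Rfc2 the mean was 2.66 with a UMI and 1.88 without in the combination library, and 3.00 with and 2.27 without in the IL-15SA library. These means are descriptions of barcodes within a library, with no test.

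The 34 mitosis genes summed to 2657 CPM in the combination library and 2828 CPM in the IL-15SA library over all Ncr1-positive barcodes, a ratio of 0.939 (0.930 to 0.948). Of the 34, 30 were below 0, against 47.4% of all genes. Within strongly cycling barcodes their sum was 6983 CPM in the combination library and 6608 CPM in the IL-15SA library, a ratio of 1.06 (1.05 to 1.07). There 11 of 34 were below 0, against 46.9% of all genes, and the median log2 ratio was 0.0204, against 0.0146 for all genes. The 4 general cycle genes had a ratio of 0.950 (0.928 to 0.973) in strongly cycling barcodes. These genes define the strongly cycling barcodes, so the values are a description of what was selected.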
